A study of Mus musculus with 6 samples.

Results

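Transcripts of 10 genes whose products let tumour cells restrain immune cells were compared between SM positive cells, sorted for a bright C12FDG signal, and SM negative cells, sorted for a dim one, of the mouse mammary carcinoma line 4T1. The genes were chosen by symbol from the 53465 genes of the deposited table, through their Ensembl identifiers, and all 10 were present. All libraries came from axitinib-resistant cells: these were recovered from lesions regrowing after surgery in mice dosed with axitinib, a VEGF receptor kinase inhibitor, at 100 mg/kg/day, and were cultured in RPMI1640 with 5% FBS and 0.5 µM axitinib. C12FDG becomes fluorescent when β-galactosidase cleaves it, and 3 libraries of polyadenylated RNA came from each sorted fraction. Both fractions carried resistance and drug alike, no parental or untreated cells were compared here, and the sources used here do not say whether the resistant line is a clone. The labels do not say what makes a replicate, and each p-value therefore reflects only how much these 6 libraries vary, possibly for technical reasons.

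Checkpoint ligands act by touching receptors on T cells, NK cells and macrophages. PD-L1 (Cd274) and PD-L2 (Pdcd1lg2) bind PD-1, CD80 binds CD28 and CTLA-4, and the related B7 proteins B7-H3 (Cd276) and B7-H4 (Vtcn1) restrain T cells through receptors that are less well defined. The poliovirus receptor (Pvr) and nectin-2 (Nectin2) are shared by the inhibitory receptor TIGIT and the activating receptor CD226. Galectin-9 (Lgals9) binds glycans on TIM-3 and other receptors, and CD47 signals to SIRPα on macrophages to prevent engulfment. CD73 (Nt5e) is a surface enzyme that makes adenosine from AMP, and adenosine dampens T cells through its receptors.

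In SM positive cells Lgals9 rose 1.45-fold and Nt5e rose 1.3-fold, and in both genes every SM positive library lay above every SM negative library. Vtcn1, a rare transcript, was 2.08-fold higher without passing the main test, and passed once replicate numbers were paired. Cd274, Cd47, Pvr, Nectin2 and Cd276 did not pass in either fit, and Pdcd1lg2 and Cd80 were at or near 0 counts throughout. Libraries held 18733801 to 26533528 counts. Levels are CPM (counts scaled to a common library total, after TMM), as mean ± SD over n = 3 libraries, and changes are log2 of SM positive over SM negative with a threshold of 0.05 on the adjusted p.

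Of the 10 genes, 8 had enough counts to be tested, and 2 of these passed, both higher, where 1.35% of all 14038 tested genes passed and 1.14% were higher. With the replicate number as a block, 3 of the 8 passed, all higher, against a background of 14.1% in either direction and 8.52% higher. The libraries of the fractions did not overlap, SM positive above, in 3 of the 8 genes and in 10.4% of all tested genes. The median log2 change was 0.02 over the 8 genes and -0.00085 over all tested genes.

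**Figure D1:**
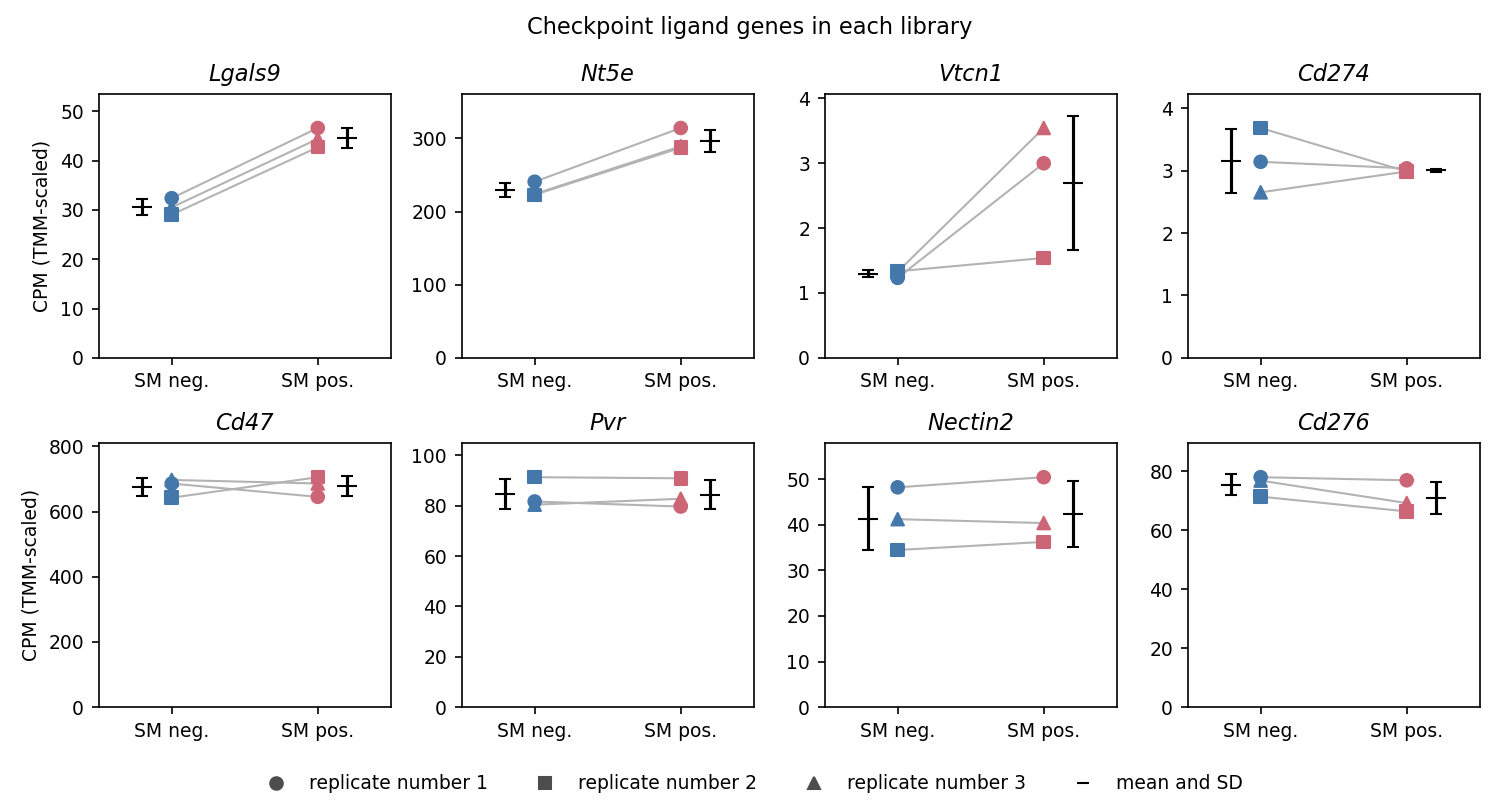
CPM (TMM-scaled, linear axes from 0) of the 8 tested checkpoint ligand genes in each library. Points are libraries, grey lines join the same replicate number, and bars give mean and SD. In Lgals9, Nt5e and Vtcn1 all SM positive points lie above the SM negative ones, whereas the fractions overlap in the other genes.

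Scaled by the joint length of all annotated exons of each gene, the genes fell into a wide order. Lengths of the transcripts actually expressed were not used, so the order between genes depends on this choice. Levels are given here as TPM computed from exon lengths, over all 6 libraries. Cd47 led with a median of 296.7 TPM (282.4 to 310 TPM), followed by Nt5e at 83 TPM (71.5 to 100.8 TPM), and the ranges of these genes touched neither each other nor the next gene. Cd276 (median 55.1 TPM), Lgals9 (47.5 TPM), Pvr (36.9 TPM) and Nectin2 (32.4 TPM) came next, each with a range that overlapped its neighbour's. Cd274 stood far below at a median of 2.3 TPM, and its range of 2.01 to 2.8 TPM overlapped that of Vtcn1 (1.24 to 3.77 TPM, median 1.51 TPM). The order of mean levels differed between fractions for Lgals9 and for Vtcn1. At 38.9 ± 1.27 TPM Lgals9 was below Cd276 (56 ± 1.96 TPM) in SM negative cells, and at 57.8 ± 2.54 TPM it overlapped Cd276 (53.7 ± 4.05 TPM) in SM positive cells. Vtcn1 was at 1.34 ± 0.0905 TPM against 2.37 ± 0.403 TPM for Cd274 in SM negative cells, and at 2.85 ± 1.11 TPM against 2.3 ± 0.0204 TPM in SM positive cells, where SM positive replicate 2 of Vtcn1, at 1.62 TPM, was still below Cd274. Cd47 made up between 48.6% and 55.9% of the TPM summed over the 10 genes.

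**Figure D2:**
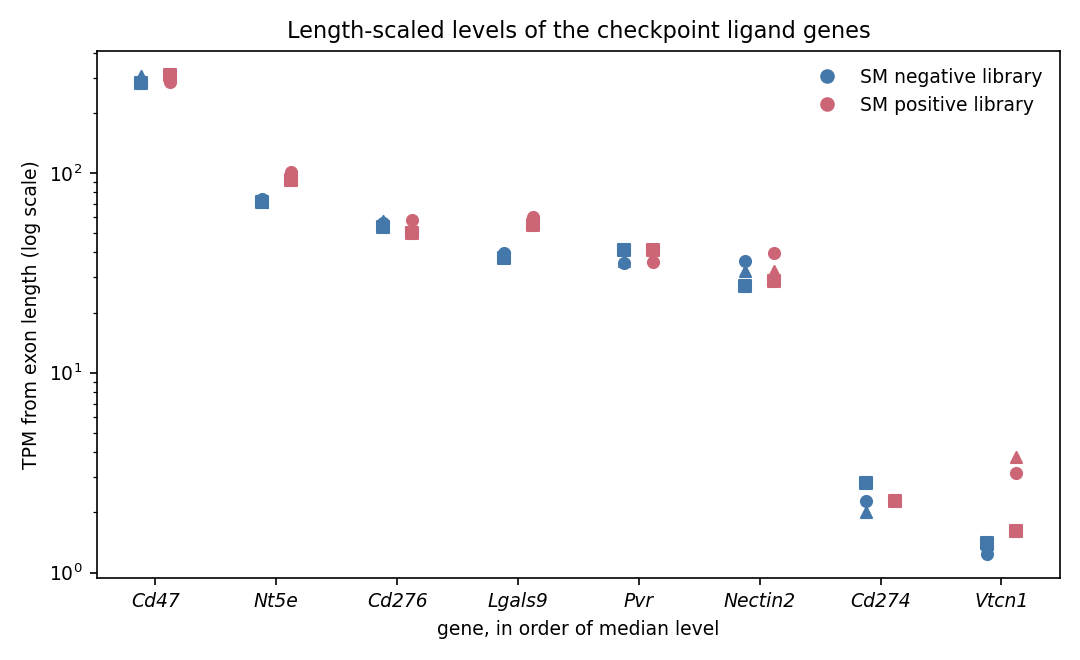
TPM computed from exon length (log axis) for the 8 genes detected in every library, in order of their median. Each point is a library, blue for SM negative and red for SM positive; Cd47 stands highest near 297 TPM, and Cd274 and Vtcn1 lie far below the other 6 genes.

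Lgals9 (ENSMUSG00000001123.15, GRCm38 chromosome 11, 78962974 to 78984946, minus strand) encodes galectin-9, which is known as an interferon-inducible lectin. Its level was 32.4, 29.0 and 30.5 CPM in SM negative replicates 1, 2 and 3, and 46.6, 42.7 and 44.4 CPM in SM positive replicates 1, 2 and 3. The fractions were clearly apart, and the spread inside each was small beside the gap. The mean rose from 30.6 ± 1.67 to 44.6 ± 1.96 CPM, a log2 change of 0.54 ± 0.0715 (SE; adjusted p = 0.00871), and the differences within replicate numbers 1, 2 and 3 were nearly equal at 0.53, 0.56 and 0.54. The block left the change at 0.54 (adjusted p = 5.00e-07). Without the block, the call ended when SM negative replicate 2 or 3 was left out (adjusted p = 0.0539 and 0.0512). No other annotated gene overlaps Lgals9, and none of its 31-base stretches occurs in another gene.

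Nt5e (ENSMUSG00000032420.8, chromosome 9, 88327197 to 88372092, plus strand) encodes CD73. It stood at 240.7, 222.9 and 223.9 CPM in SM negative replicates 1, 2 and 3, and at 314.2, 287.2 and 289.1 CPM in the SM positive ones. The first replicate number was the highest in each fraction, and no SM positive library came near the SM negative range. The mean rose from 229.2 ± 10 to 296.8 ± 15 CPM, a log2 change of 0.37 ± 0.0581 (SE; adjusted p = 0.0152), with differences of 0.38, 0.37 and 0.37 within the replicate numbers. With the block the adjusted p was 1.37e-06. Without the block, the call ended without SM negative replicate 2 or 3 (adjusted p = 0.0846 and 0.0824) and without SM positive replicate 3 (adjusted p = 0.0501).

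Vtcn1 (ENSMUSG00000051076.8, chromosome 3, 100825459 to 100896922, plus strand) encodes B7-H4. It had 31, 25 and 28 counts in SM negative replicates 1, 2 and 3, and 80, 33 and 70 counts in the SM positive ones, so it passed the filter on low counts in both fractions. These counts correspond to 1.23, 1.33 and 1.33 CPM, and to 3.0, 1.54 and 3.54 CPM. SM positive replicate 2 stood apart from its fellows and just above the SM negative libraries. The log2 change was 1.05 ± 0.295 (SE), with a 95% interval of 0.40 to 1.71 and an adjusted p of 0.145. The block gave 1.03 (adjusted p = 0.00598), and blocked fits without replicate number 1, 2 or 3 gave adjusted p = 0.123, 0.00167 and 0.134. Without the block, leaving out SM positive replicate 2 raised the change to 1.33 (adjusted p = 0.0287), and testing all genes with no filter gave 1.06 (adjusted p = 0.00235). The differences within replicate numbers 1, 2 and 3 were 1.28, 0.21 and 1.42.

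The promoter windows of these 3 genes and of Cd274 are shown because the first group was higher in SM positive cells and Cd274, the best known ligand, was not. Each runs from 250 bases before to 50 bases after the RefSeq start (GRCm38.p6) and is written 5′ to 3′ on the gene's strand. They lie at chr11:78984875-78985174 (Lgals9, minus strand), chr9:88327359-88327658 (Nt5e, plus strand), chr3:100825209-100825508 (Vtcn1, plus strand) and chr19:29367188-29367487 (Cd274, plus strand). Capitals mark matches on either strand to GAAA, any 2 bases and GAAA again, a core of the interferon-stimulated response element, or to ACGTG, the core of the hypoxia response element.
Lgals9: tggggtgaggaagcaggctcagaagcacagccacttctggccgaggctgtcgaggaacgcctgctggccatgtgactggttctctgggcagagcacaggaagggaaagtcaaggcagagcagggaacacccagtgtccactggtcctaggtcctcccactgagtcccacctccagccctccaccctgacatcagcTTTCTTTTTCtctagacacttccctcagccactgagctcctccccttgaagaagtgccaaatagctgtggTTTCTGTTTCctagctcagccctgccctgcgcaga
Nt5e: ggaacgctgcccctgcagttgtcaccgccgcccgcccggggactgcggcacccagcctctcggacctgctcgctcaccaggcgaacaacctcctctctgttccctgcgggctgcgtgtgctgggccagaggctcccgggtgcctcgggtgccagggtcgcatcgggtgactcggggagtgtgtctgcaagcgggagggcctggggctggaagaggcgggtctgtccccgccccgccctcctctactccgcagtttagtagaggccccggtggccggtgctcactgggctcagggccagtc
Vtcn1: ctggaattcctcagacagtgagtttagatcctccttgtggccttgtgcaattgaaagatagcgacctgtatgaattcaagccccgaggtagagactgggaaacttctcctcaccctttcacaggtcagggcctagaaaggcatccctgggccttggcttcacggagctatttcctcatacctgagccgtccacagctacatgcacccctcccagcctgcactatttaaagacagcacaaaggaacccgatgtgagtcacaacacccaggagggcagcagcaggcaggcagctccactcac
Cd274: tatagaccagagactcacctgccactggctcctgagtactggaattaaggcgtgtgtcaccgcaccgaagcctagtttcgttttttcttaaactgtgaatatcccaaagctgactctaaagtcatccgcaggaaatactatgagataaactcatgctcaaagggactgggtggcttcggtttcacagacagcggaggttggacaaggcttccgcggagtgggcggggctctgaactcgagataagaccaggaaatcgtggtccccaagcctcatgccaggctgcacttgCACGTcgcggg
TTCNNNGAA, a core of the interferon-gamma activated site, and the NF-κB consensus were searched on both strands too and had no match in these 4 windows.

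Lgals9 held 2 matches to the interferon-stimulated response element core, both read on the opposite strand, which began 55 bases before and 15 bases after the start. Of 32544 promoter windows of the same length, 3.45% held at least 1 such match and 0.221% held 2 or more. Cd274 held 1 match to ACGTG, which 19.7% of windows hold, and the windows of Nt5e and Vtcn1 held none of the 4 motifs. The Nt5e window lies inside the annotated gene, which begins at 88327197, so bases before that annotated start were not searched. Shares for the other motifs were 8.33% for TTCNNNGAA and 8.49% for the NF-κB consensus. These matches describe letters in the windows and are not measured binding sites.

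The PD-1 ligands showed little. Cd274 (ENSMUSG00000016496.7, chromosome 19, 29367455 to 29388095, plus strand) had 3.14, 3.68 and 2.65 CPM in SM negative replicates 1, 2 and 3, and 3.04, 2.99 and 2.99 CPM in the SM positive ones. The SM positive libraries lay within the SM negative range and close to each other (SD 0.0291 CPM). The log2 change was -0.07 with a 95% interval of -0.45 to 0.31 (adjusted p = 0.909), so changes inside that interval were not excluded. Cd274 had 56 to 81 counts per library. Other genes share 14.6% of its 31-base stretches, and AC119228.1 overlaps its exons on the opposite strand. How strand was handled in counting is not given in the sources used here. Pdcd1lg2, its neighbour (chromosome 19, 29410919 to 29471161, plus strand), had 0 or 1 counts in every library, under the limit of 0.113 to 0.16 CPM that 3 counts set. Such limits cover counting error only.

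Among the other B7 genes, Cd80 (chromosome 16, 38455561 to 38496335, plus strand) had 0 counts in all 6 libraries, which allows up to 0.113 to 0.16 CPM. Cd276 (chromosome 9, 58524298 to 58555437, minus strand) stood at 78.0, 71.4 and 76.8 CPM in SM negative replicates 1, 2 and 3, and at 77.0, 66.4 and 69.2 CPM in the SM positive ones. It was lower in SM positive cells within all 3 replicate numbers, by differences of -0.02, -0.11 and -0.15, yet the fractions overlapped. The log2 change was -0.09 with a 95% interval of -0.24 to 0.06 (adjusted p = 0.642; with the block, -0.18 to 0.0032 and adjusted p = 0.2). Gm10657, which overlaps Cd276 exons on the opposite strand, had at most 8 counts in any library.

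The TIGIT ligands followed the replicate number more than the fraction. Nectin2 (chromosome 7, 19716644 to 19750483, minus strand) stood at 48.2, 34.5 and 41.2 CPM in SM negative replicates 1, 2 and 3, and at 50.5, 36.3 and 40.4 CPM in the SM positive ones. The order of the replicate numbers was the same in both fractions, with a spread of 0.48 (log2) between numbers against differences of 0.07, 0.07 and -0.03 between fractions. Its log2 change was 0.04 (95% interval -0.30 to 0.37, adjusted p = 0.943), and with the block the interval narrowed to -0.07 to 0.14. Pvr (chromosome 7, 19903578 to 19921160, minus strand) stood at 81.7, 91.4 and 80.4 CPM in SM negative replicates 1, 2 and 3, and at 79.7, 90.9 and 82.8 CPM in the SM positive ones. Replicate number 2 was the highest in both fractions. Its log2 change was -0.00026 (95% interval -0.16 to 0.16, adjusted p = 0.99985).

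Cd47 (ENSMUSG00000055447.18, chromosome 16, 49800533 to 49915010, plus strand) was the most abundant member. Its level was 685.7, 642.4 and 696.9 CPM in SM negative replicates 1, 2 and 3, and 644.9, 705.3 and 685.9 CPM in the SM positive ones. The fractions overlapped, and the difference changed sign between replicate numbers. With 12036 to 17247 counts per library, the log2 change was 0.01 with a 95% interval of -0.12 to 0.13 (adjusted p = 0.97), which corresponds to 0.922-fold to 1.1-fold.

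**Figure D3:**
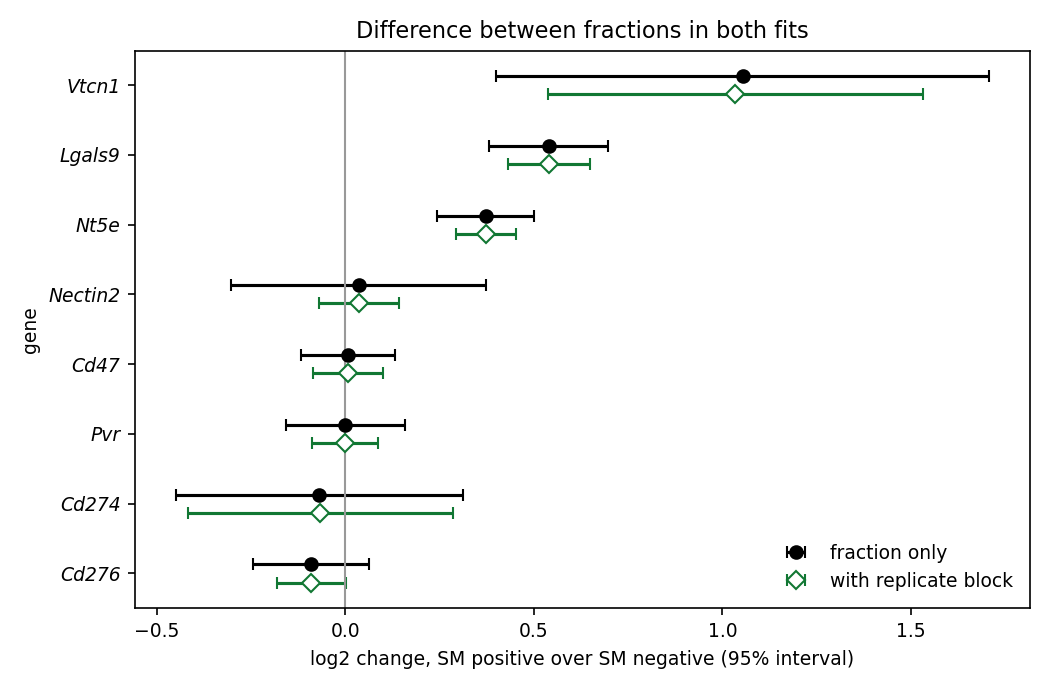
Log2 change (SM positive over SM negative) of the 8 tested genes with 95% intervals, from the fit with the fraction only (black) and with the replicate number as a block (green). The intervals of Vtcn1, Lgals9 and Nt5e lie above 0 in both fits, and the other 5 span 0; of these 2 fits, the Vtcn1 adjusted p passed in the blocked one.

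Genes that work with these ligands were described from 5 further lists. In the adenosine list, 1 of 8 tested genes passed (1.35% of all tested genes did), Slc29a1, which encodes the nucleoside transporter ENT1. It stood at 123.6, 121.4 and 129.6 CPM in SM negative and 155, 149.9 and 147.8 CPM in SM positive libraries, with no overlap (log2 change 0.27 ± 0.053 SE, adjusted p = 0.0364). That call ended with each library left out in turn (adjusted p = 0.0908 to 0.151). Entpd1, which encodes CD39 and makes AMP for CD73, had at most 1 count in any library. The enzymes Entpd3 and Enpp1, which can also yield AMP, stood at 4.11 ± 0.208 and 4.49 ± 0.494 CPM in SM positive cells. Ada, the adenosine deaminase, and Adk, the adenosine kinase, had log2 changes of -0.07 and -0.06 (adjusted p = 0.836 and 0.744). The median log2 change of the list was -0.07.

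Of 30 tested genes known to set the level of PD-L1, PD-L2 or CD47 or to bind CD47, 2 passed, both higher, where 1.35% of all tested genes passed and 1.14% were higher, and the list median was 0.04. Jak2, the kinase of the interferon-γ receptor whose gene lies near Cd274 on chromosome 19, stood at 74.2, 72.4 and 78.4 CPM in SM negative and 93.1, 87.9 and 93.7 CPM in SM positive libraries. The fractions did not overlap (log2 change 0.29 ± 0.0578 SE, adjusted p = 0.0415), but each library left out in turn ended the call (adjusted p = 0.0686 to 0.159), as did scaling by library totals (0.0511), non-robust estimation (0.0512) and limma-voom (0.0572). Thbs1, which encodes thrombospondin 1, a secreted ligand of CD47, stood at 904.3, 1075 and 1173 CPM in SM negative and 1607, 1604 and 2021 CPM in SM positive libraries. Its fractions were also apart (log2 change 0.73 ± 0.117 SE, adjusted p = 0.0281). The Thbs1 call ended without SM negative replicate 1 or 2 (adjusted p = 0.0613 and 0.128) or SM positive replicate 1 (adjusted p = 0.0506).

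With the block, 9 of the 30 passed, where 14.1% of all tested genes did. The 6 that rose included Jak2, Thbs1, Irf2, Hif1a and Cmtm6, which encodes a protein that protects PD-L1 from breakdown (68.3 ± 2.07 to 77.6 ± 2.07 CPM, adjusted p = 0.00739). The 3 that fell were Myc, the phosphatase gene Ptpn2 and Spop, an adaptor for PD-L1 degradation. Myc went from 282.6 ± 26.3 to 251.1 ± 15 CPM (adjusted p = 0.00886). Ptpn2 went from 66.5 ± 2.28 to 59.8 ± 2.52 CPM (adjusted p = 0.021) and Spop from 70.1 ± 4.44 to 62.5 ± 1.85 CPM (adjusted p = 0.0172). In the main fit, adjusted p was 0.172 for Cmtm6, 0.168 for Hif1a and 0.273 for Irf2. It was 0.345 for Myc, 0.286 for Ptpn2 and 0.285 for Spop. Irf1, the interferon-induced factor that drives PD-L1 transcription, had a log2 change of -0.10 (adjusted p = 0.684; 0.135 with the block).

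None of the 14 tested genes among other co-inhibitory and co-stimulatory ligands passed the main test, and the list median was 0.16. With the block, 3 rose and 2 fell, where 14.1% of all tested genes passed in either direction. Cd24a, whose human counterpart is a ligand of Siglec-10, rose with the block from 151 ± 18.7 to 186 ± 14.7 CPM (log2 change 0.30, adjusted p = 4.07e-05; 0.172 without it). H2-T23, the Qa-1 heavy chain read by NKG2A, rose from 116.6 ± 4.76 to 132.3 ± 9.1 CPM (adjusted p = 0.00594 with the block; 0.242 without it), and how far reads were shared with similar MHC class I genes was not measured, so its values are uncertain. Vsir, which encodes VISTA, was the third, at 3.86 ± 0.728 and 5.33 ± 1.48 CPM (adjusted p = 0.0349 with the block; 0.401 without it). The galectins of this list went the other way from Lgals9: with the block Lgals3 fell from 300.6 ± 12.7 to 269.1 ± 8.82 CPM (adjusted p = 0.00846; 0.228 without it) and Lgals1 from 4137 ± 311.1 to 3689 ± 301.6 CPM (adjusted p = 0.0236; 0.367 without it).

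Counter-receptors were mostly missing, as 11 of 15 were too low to test, and Pdcd1, Cd226 and Icos had 0 counts. Tigit, the receptor for Pvr and Nectin2, was among the 4 tested, with 56.3, 48.0 and 47.9 CPM in SM negative and 67.9, 50.4 and 51.0 CPM in SM positive libraries (log2 change 0.16, adjusted p = 0.642; 0.0488 with the block). Tnfrsf9, which encodes the costimulatory receptor 4-1BB, was at 4.33 ± 0.338 CPM in SM negative and 3.02 ± 0.473 CPM in SM positive cells (log2 change -0.51, adjusted p = 0.207; 0.0272 with the block). Sirpa, which encodes the CD47 receptor, stood at 28.3 ± 2.04 and 29.9 ± 3.2 CPM (adjusted p = 0.786). Of the counter-receptors none passed the main test, and the median of the 4 tested was 0.06.

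Ligands of the activating receptor NKG2D did not pass in either fit (4 tested, list median -0.03). Ulbp1, which encodes MULT1, was at 290.8 ± 54 CPM in SM negative and 277.2 ± 59.5 CPM in SM positive cells (log2 change -0.07, adjusted p = 0.922). Raet1e had a log2 change of 0.58 (adjusted p = 0.423) at 0.897 ± 0.262 and 1.35 ± 0.298 CPM, and H60c one of -0.17 (adjusted p = 0.737). The Raet1 genes resemble each other, as do the H60 genes, and how far reads were shared within either family was not measured, so their values are uncertain. Raet1d was too low to test, with 21, 7 and 14 counts in SM negative and 11, 2 and 5 counts in SM positive replicates 1, 2 and 3. The other 3 genes of this list (Raet1a, Raet1b and H60a) were not found by symbol in the deposited table.

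**Figure D4:**
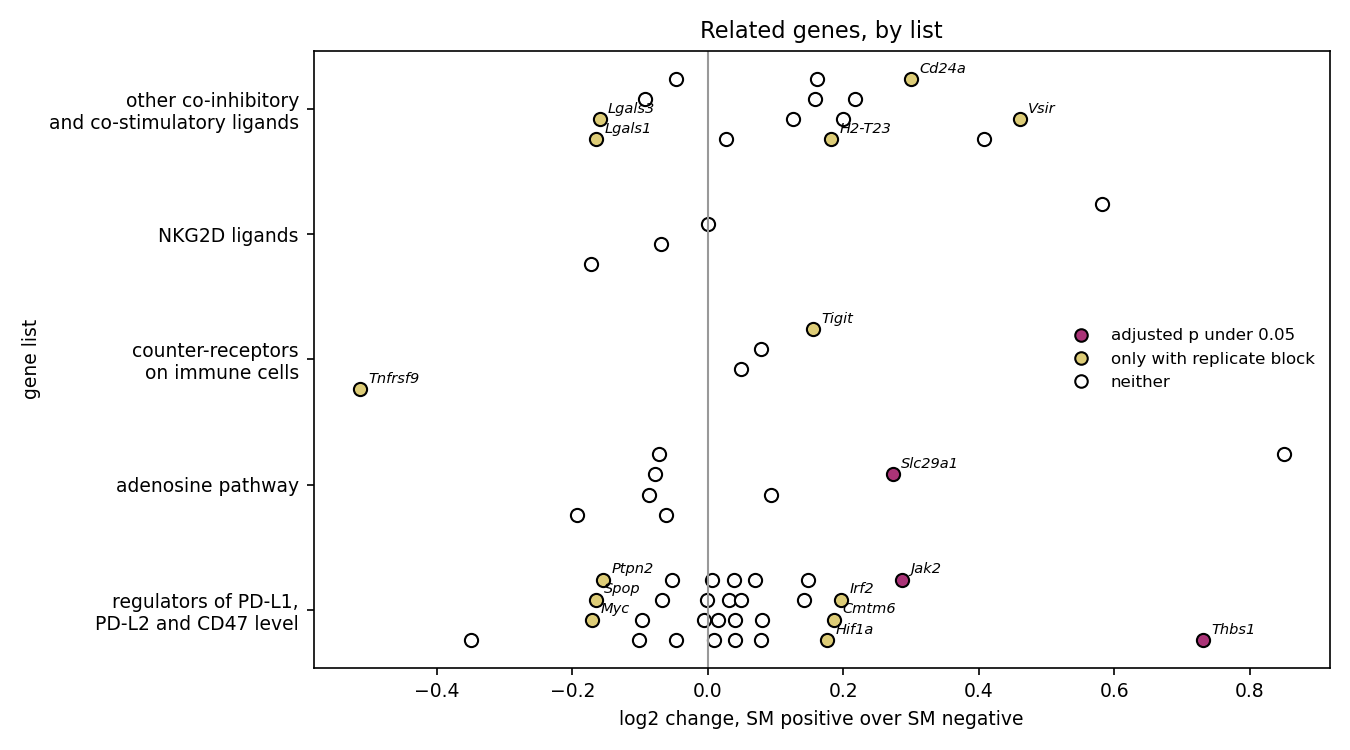
Log2 change (SM positive over SM negative) of the tested genes in 5 related lists, one point per gene, spread vertically for legibility, with 1 gene not shown. Filled purple points (Slc29a1, Jak2, Thbs1) passed at an adjusted p under 0.05, yellow points passed only with the replicate block, and open points passed in neither.

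Markers of epithelial cells other than Krt19 were abundant, and those of other cell types were scarce. Krt19 stood at 1.71 ± 0.444 CPM in SM negative and 0.916 ± 0.0401 CPM in SM positive cells. Krt7 (1385 ± 15.2 CPM in SM negative and 1313 ± 79.2 CPM in SM positive) and Krt18 (1055 ± 33.3 and 983.2 ± 62.1 CPM) led the 6 epithelial markers, whose summed level was 4210 to 4377 CPM in SM negative and 3930 to 4237 CPM in SM positive libraries (exact permutation p = 0.3). With the block, where 14.1% of all tested genes passed, Epcam and Krt19 fell (adjusted p = 0.0147 and 0.0263). Cd68 also fell (0.0148) and Pdgfra rose (0.0423). No marker passed the main test, where adjusted p was 0.266 for Epcam, 0.16 for Krt19 and 0.233 for Cd68. Macrophage and dendritic cell markers summed to 15.2 to 16.4 CPM in SM negative and 12.1 to 14.7 CPM in SM positive libraries (exact permutation p = 0.1, the smallest possible), nearly all of it Cd14 and Cd68, and Adgre1 and C1qa were at 0. Lymphocyte markers summed to at most 0.189 CPM (exact permutation p = 0.4), close to the limit of 0.113 to 0.16 CPM that 3 counts set. The highest of them, Cd79a and Cd3d, were too low to rank, and Cd3e, Cd4, Cd8a, Nkg7 and Ncr1 were at 0. Fibroblast and pericyte markers summed to 4.75 to 5.21 CPM in SM negative and 6.25 to 8.7 CPM in SM positive libraries (exact permutation p = 0.1), most of it Pdgfra and then Col1a1, with Col3a1 and Lum at 0, and their part in the results above was not tested. Endothelial markers summed to 4.17 to 5.07 and 4.57 to 5.25 CPM (exact permutation p = 0.5), most of it Flt1 and then Pecam1, and Emcn was at 0. In such bulk libraries, fewer cells of a kind and less RNA per cell cannot be told apart.

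The genes closest in pattern to Cd274 and to the 3 members of highest CPM were found by Pearson correlation of log2 CPM over the 6 libraries. They were sought among 9573 other genes with a mean of at least 5 CPM (9574 for Cd274, which lies below that mean itself). Only protein-coding genes with counts in every library were searched, and predicted or clone-named genes were left out. Nephronectin (Npnt) was closest to Nt5e, at 0.999, followed by Fbxo45 and Pam at 0.997. Tcim, Nedd1 and Gtf2e2 were closest to Pvr, from 0.993 to 0.987. Mrps31, March9 and Dnttip1 were closest to Cd47, at 0.951 to 0.947, and Prdm10, Efcab14 and Lrrc8b to Cd274, at 0.998 to 0.973. With so few libraries and so many genes, values near 1 arise readily, and they are given as a description.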

How the data were processed

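RNA-seq of polyadenylated RNA from 6 libraries was used. The authors deposited 1 table of expected counts, of which 13.5% to 14.4% per library were not whole, and these were rounded. FastQC 0.11.5, STAR 2.6.0a, RSEM 1.3.1 and build GRCm38 appear in the submitters' processing notes without order or role. Annotation release and strand handling were not given in the sources used here. Identifiers were matched to GENCODE M21 without version numbers (99.8% matched), which gave symbols, 1-based coordinates and exon lengths. Genes were filtered with filterByExpr, scaled by TMM and tested with edgeR 4.0.16 (R 4.3.3; robust quasi-likelihood F test, Benjamini-Hochberg adjustment over 14038 genes); every adjusted p comes from it unless another tool is named. The code was tested on simulated data. The 2 groups were fitted on the fraction alone, and with the replicate number as a block.

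The main test used the fraction alone. In the blocked fit, replicate numbers were taken to pair libraries. The reason was that deviations from the fraction means correlated at 0.196 to 0.28 for the same number (minimum set at 0.1). For different numbers they correlated at -0.175 to -0.043. Deviations were centred within each fraction, so positive same-number values force negative ones among different numbers, which are not separate evidence. Libraries differed beyond sampling noise. Alternatives were other scalings and filters, DESeq2 1.42.0, limma-voom (limma 3.58.1), no robust estimation, other thresholds and left-out libraries. For marker sums an exact permutation test (2-sided) was used. The members, lists and settings were chosen with earlier results of these data known. Named genes were all members, list members past the threshold (otherwise up to 3 of lowest p averaging 1 CPM or more), the 2 highest markers of each cell type, and the 3 nearest patterns of Cd274 and the 3 members of highest CPM. Others, named with the block, for their role (Entpd1, Entpd3, Enpp1, Ada, Adk and Irf1) or as too low to test (Raet1d), were picked after their values were seen. Results for 1 listed gene are not reported here.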

Additional observations from a re-analysis of the deposited data

How the results depend on the processing

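The 2 ligand calls, Lgals9 and Nt5e, were higher under all 19 alternatives, with log2 changes of 0.50 to 0.58 and of 0.33 to 0.41. The thresholds of 0.01 and 0.1 reuse the main fit, so the direction could not change under them. Between 2 and 3 ligand genes passed under each alternative except a threshold of 0.01, which left 1, and left-out libraries, which gave 0 to 3. The replicate block changed the call of Vtcn1 and of no other among the 8 tested ligands. In the related lists 3 of 60 tested genes passed in the main test, where 1.35% of all tested genes did. With the replicate block 17 passed, 11 higher and 6 lower, where 14.1% of all tested genes did. Blocked fits that also left out replicate number 1, 2 or 3 gave 5, 15 and 5. A threshold of 0.01 gave 0, and single libraries left out gave 0 to 1. Over all genes 190 passed, against 1982 with the replicate block (705, 1797 and 886 without replicate number 1, 2 or 3), 663 with no filter, 335 with DESeq2, 33 and 346 at thresholds of 0.01 and 0.1, and 25 to 122 with single libraries left out.

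Directions turned in 4 ligands near 0, none of them called. With the block and without replicate number 2, Cd274 had a log2 change of 0.053, Cd47 of -0.055 and Pvr of 0.0019. Pvr was also positive without replicate number 1 (0.014), with no filter (0.010), DESeq2 (0.0036) and limma-voom (0.00028). With single libraries left out, log2 changes ran from -0.18 to 0.048 for Cd274, from -0.026 to 0.042 for Cd47, from -0.056 to 0.059 for Pvr and from -0.12 to 0.16 for Nectin2. The summed endothelial markers differed by 0.255 CPM, and by -0.0267 to 0.466 CPM with single libraries left out. The cause of these turns was not tested. Pdcd1lg2 and Cd80 had counts too low to test, and whether depth limited them was not tested.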

Other observations

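Ulbp1, which encodes a ligand of NKG2D, separated the libraries by replicate number and not by fraction. It stood at 338.3, 302 and 232.1 CPM in SM negative replicates 1, 2 and 3, and at 342.1, 264.3 and 225.3 CPM in SM positive replicates 1, 2 and 3. Alpl, a surface phosphatase that can also make adenosine from AMP, stood at 0.643 ± 0.19 CPM in SM negative and 1.17 ± 0.0865 CPM in SM positive libraries (n = 3 each), with no overlap, but did not pass the test (edgeR log2 change 0.85; adjusted p = 0.228, and 0.0686 once blocked). Both were picked after their values were seen.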
